A study of Mus musculus with 7 samples.

Results

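Shared Nfatc1 peaks at gene ends are the regions described here: places beside the start or the end of a gene where CUT&Tag for FLAG-tagged Nfatc1 gave a called peak both in fibroblasts given R406 and in fibroblasts given the solvent DMSO. They were chosen from the deposited peak lists as peaks of the R406 list on chromosomes 1 to 19 and X, under 2000 bp wide, that overlapped a DMSO peak by at least 1 bp and whose summit lay within 3000 bp of either edge of a RefSeq gene span (GRCm38.p6, the assembly that mm10 names). The rule was met by 6011 of the 36885 peaks of the R406 list, beside 21246 peaks in the DMSO list. Because a peak had to be called in both libraries to be chosen, the heights of these peaks are given below as descriptions with no test.

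The cells were mouse embryonic fibroblasts of embryonic day 13.5 from OG2 mice (CBA-Tg(Pou5f1-EGFP)2Mnn/J), in which a Pou5f1 promoter drives a green fluorescent protein. All groups were kept in Stage 1 medium of a chemical reprogramming protocol, which contains vitamin C, bFGF, Forskolin, Parnate, VPA, EPZ004777, AM580, 616452 and CHIR99021. For CUT&Tag the cells also carried rtTA and a TetO-Flag-Nfatc1 lentivirus, were given Dox, and were harvested at day 4 of DMSO or R406, with 1 library per condition. The protein measured was therefore an induced, tagged copy and not the cells' own Nfatc1. The blank library, which left out the first antibody, is not used here, so signal that does not depend on the antibody was not measured. RNA-seq was run on 2 libraries with DMSO and 2 with R406 from a 12-day protocol whose labels mention no lentivirus, and the day of harvest is not given in the sources used here.

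R406 inhibits Syk, a tyrosine kinase of immune receptor signalling. Calcium entering the cell activates calmodulin and the phosphatase calcineurin, which strips phosphates from the NFAT proteins Nfatc1 to Nfatc4 and lets them enter the nucleus. There they bind DNA at the core letters GGAAA, often beside AP-1 proteins, and kinases such as Dyrk1a and casein kinase 1 return them to the cytoplasm. In CUT&Tag an antibody tethers a transposase that cuts nearby DNA, and open chromatin at active promoters is known to be cut readily as well.

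The letters that Nfatc1 is known to bind were looked for in the 300-base promoter windows of RefSeq, which run from 250 bases before to 50 bases after each listed gene start. Of 32817 distinct windows, 1755 (5.35%) held the summit of a shared gene-end peak, and 1491 of the 6011 peaks had their summit in such a window. The 250 bases before the start are printed for 7 genes, with each NFAT core (GGAAA, or TTTCC where it lies on the other strand) in capitals. Ptgs2, Rcan1, Nfatc2 and Mpst belong to the pathways the study is about, Frat2 carried the highest R406 fold among the 10 strongest shared peaks, and H3c11 and H2ac6 stand for windows of low GC content with the longer site TGGAAA.
Ptgs2, chr1:150099781-150100030, plus strand: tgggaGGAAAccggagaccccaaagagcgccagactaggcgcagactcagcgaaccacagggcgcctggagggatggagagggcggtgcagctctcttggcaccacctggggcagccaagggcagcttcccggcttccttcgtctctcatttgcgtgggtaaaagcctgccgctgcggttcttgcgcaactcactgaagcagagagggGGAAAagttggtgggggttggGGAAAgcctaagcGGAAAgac
Rcan1, chr16:92466170-92466419, minus strand: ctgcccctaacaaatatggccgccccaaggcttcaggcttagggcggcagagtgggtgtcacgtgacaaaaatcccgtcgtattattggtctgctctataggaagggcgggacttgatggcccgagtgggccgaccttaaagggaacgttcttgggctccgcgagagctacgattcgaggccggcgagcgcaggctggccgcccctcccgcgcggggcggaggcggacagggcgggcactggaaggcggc
Nfatc2, chr2:168601658-168601907, minus strand: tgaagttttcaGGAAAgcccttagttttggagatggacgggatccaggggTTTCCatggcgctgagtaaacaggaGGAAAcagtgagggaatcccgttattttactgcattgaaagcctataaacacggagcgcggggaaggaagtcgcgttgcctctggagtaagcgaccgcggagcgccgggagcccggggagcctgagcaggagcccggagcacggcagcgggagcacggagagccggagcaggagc
Mpst, chr15:78406462-78406711, plus strand: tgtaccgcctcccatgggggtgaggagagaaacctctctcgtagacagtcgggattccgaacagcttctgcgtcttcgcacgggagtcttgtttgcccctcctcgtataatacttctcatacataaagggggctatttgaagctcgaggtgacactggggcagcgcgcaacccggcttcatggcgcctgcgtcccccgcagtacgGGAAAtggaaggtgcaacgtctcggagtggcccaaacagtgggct
Frat2, chr19:41848133-41848382, minus strand: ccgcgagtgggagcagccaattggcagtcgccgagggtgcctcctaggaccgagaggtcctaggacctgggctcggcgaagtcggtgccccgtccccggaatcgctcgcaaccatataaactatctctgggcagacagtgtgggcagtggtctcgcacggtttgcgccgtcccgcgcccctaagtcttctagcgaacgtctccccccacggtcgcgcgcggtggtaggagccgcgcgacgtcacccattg
H3c11, chr13:21783398-21783647, minus strand: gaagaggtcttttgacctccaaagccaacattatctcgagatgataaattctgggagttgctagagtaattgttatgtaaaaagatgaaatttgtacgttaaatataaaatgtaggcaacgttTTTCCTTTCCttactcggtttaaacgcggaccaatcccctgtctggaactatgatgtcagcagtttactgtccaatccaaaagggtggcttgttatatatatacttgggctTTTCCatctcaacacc
H2ac6, chr13:23683960-23684209, minus strand: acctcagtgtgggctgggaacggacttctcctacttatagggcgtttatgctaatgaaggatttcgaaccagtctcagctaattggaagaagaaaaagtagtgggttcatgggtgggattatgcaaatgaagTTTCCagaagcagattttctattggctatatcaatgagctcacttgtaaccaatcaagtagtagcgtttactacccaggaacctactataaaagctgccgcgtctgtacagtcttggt

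These sequences differed in what they held. The stretch before Ptgs2, which encodes the inducible cyclooxygenase, held 4 NFAT cores, that of Nfatc2 held 3, and that of Mpst held 1. No core stood in the 250 bases before Rcan1, a calcineurin inhibitor, or before Frat2, a GSK3-binding protein of the Wnt pathway. The Frat2 peak had folds of 200.5 (R406) and 66.3 (DMSO) over the caller's background, against 23.4 and 16.8 at Ptgs2. The stretches do not cover whole peaks: that of Frat2 ends at 41848382 and its peak at 41849354. The Rcan1 summit lay 250 bp upstream of the start, at the outer edge of its stretch. Cores elsewhere in the peaks were not counted, and a relation of core counts to peak height was not tested. The histone gene H3c11 held 3 cores in a stretch of 38.4% GC with folds of 29.7 and 13.1, and H2ac6 held 1 core at 43.2% GC with folds of 31.0 and 12.4. Histone genes have near-identical copies, and how reads that fit several copies were placed is not given in the sources used here.

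Over all windows, the share with an NFAT core was near the same with a shared summit and without. The core GGAAA, searched on both strands, was in 1096 of the 1755 windows with a shared summit (62.5%, 95% Wilson interval 60.2% to 64.7%) and in 61.3% of all 32817 windows. The longer site TGGAAA, which contains the core, was in 20.9% and 21.4%. Windows with a shared summit were richer in GC (median 62.0% against 52.7%) and in CpG (median 23 against 7 per window), and letters made of A and T are rarer in such windows. Read within steps of GC content, the NFAT core stood in 83.5% of the 97 windows with a shared summit at 45 to 50% GC, against 66.9% of the others. The same pair was 80.0% of 190 against 66.2% at 50 to 55% GC, and 76.2% of 374 against 61.6% at 55 to 60%. At 60 to 65% GC, where the largest number of shared summits lay (440), the shares were 56.6% and 57.2%. The core shares were higher again beyond that, 52.5% against 48.4% at 65 to 70% GC and 38.1% against 32.5% above 70%. For the longer site the shares were 64.4% of 45 windows against 31.8% at 45% GC or less, and 14.3% against 14.5% at 60 to 65%. They were 11.1% against 8.94% at 65 to 70% GC and 7.22% against 4.55% above 70%. The intervals of the shares above 65% GC took in the values of the other windows. In windows of 45% GC or less the interval for the core (68.7% to 90.7%) took in the 69.9% of the other windows, while the interval for the longer site (49.8% to 76.8%) lay above its 31.8%. All these intervals treat windows as independent. With 1 window per gene, 1512 of the 1755 were left, and low-GC windows with the longer site included histone genes, which have near-identical copies. The intervals are therefore too narrow to judge these gaps by.

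**Figure D1:**
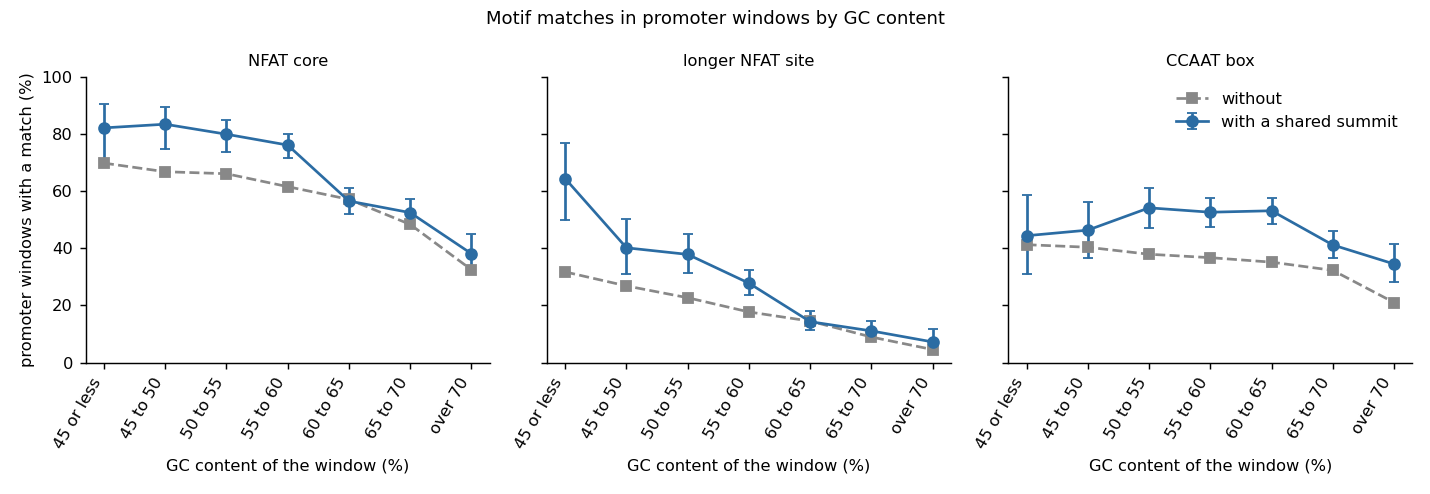
Share of RefSeq promoter windows (y axis, %) that hold the NFAT core GGAAA, the longer NFAT site TGGAAA or the CCAAT box, by GC content of the window (x axis, %). Blue points are windows with the summit of a shared gene-end peak, with 95% Wilson intervals, and grey squares are windows without one. The blue NFAT points lie above the grey ones up to 60% GC, meet them at 60 to 65% and lie slightly above them beyond that.

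Letters of general promoter factors stood in a larger share of windows with a shared summit than of all windows, and those of AP-1, a known partner of NFAT, in a smaller share. The SP/KLF box GGGCGG was in 71.1% of windows with a shared summit against 35.6% of all windows, and the ETS site CCGGAAG was in 23.5% against 8.86%. The CCAAT box, bound by NF-Y, was in 47.7% against 37.4%, and at 60 to 65% GC it was still in 53.2% against 35.2% of the others. The cAMP response element TGACGTCA was in 4.05% against 1.79%. In most steps of GC content it stayed higher, with 4.09% against 2.95% of the others at 60 to 65%. At 65 to 70% GC the order turned (3.37% against 3.62%). AP-1 as TGANTCA was in 5.07% against 7.81%, and GATA as AGATAA in 3.99% against 11.2%. For AP-1 the order depended on GC content: at 45 to 50% GC it was in 21.6% of windows with a shared summit and 10.2% of the others. Within steps of GC content the gap for GATA was smaller in most steps, with 8.95% against 10.5% of the others at 50 to 55% GC and 2.73% against 3.36% at 60 to 65%, and above 70% GC the order turned (2.06% against 0.788%). For the SP/KLF box the shares at 60 to 65% GC were 78.4% and 69.3%. Windows with the summit of a peak called with R406 alone gave 63.3% for the NFAT core and 38.1% for the CCAAT box. For other motifs these windows lay near those with a shared summit: 21.4% for ETS, 4.97% for AP-1 and 5.40% for GATA. They gave 61.3% for the SP/KLF box and 3.00% for the cAMP response element, between windows with a shared summit and all windows. Among windows with a shared summit, those with the longer NFAT site had a median R406 rank of 69.6 and those without one 63.7, while the median DMSO rank was 53.7 in both. The median difference per window ran the other way, 2.99 points with the longer site and 6.68 without, and 4.92 with the core and 7.42 without. A match is a description of letters and shows no binding.

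The label speaks of gene ends, but most of these peaks lay at gene starts. With strand from the promoter table, the nearest gene edge was a start for 3735 peaks (62.1%) and an end for 748 (12.4%). For 1528 (25.4%) the nearest edge belongs to a gene whose strand the table does not give, among them all 201 peaks on chromosome 18, for which the promoter table holds no window. Summits near starts clustered tightly, with a median 59 bp downstream of the start and quartiles of −174 and 277 bp. Of the 3735, 2045 (54.8%) lay within 250 bp of the start and 2643 (70.8%) within 500 bp. Summits near gene ends were spread over the window, with quartiles of −843 and 1531 bp and 175 of 748 (23.4%) within 500 bp. The nearest gene was protein-coding for 4243 peaks (70.6%), a lncRNA for 1377, a tRNA for 63 and a miRNA for 54.

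**Figure D2:**
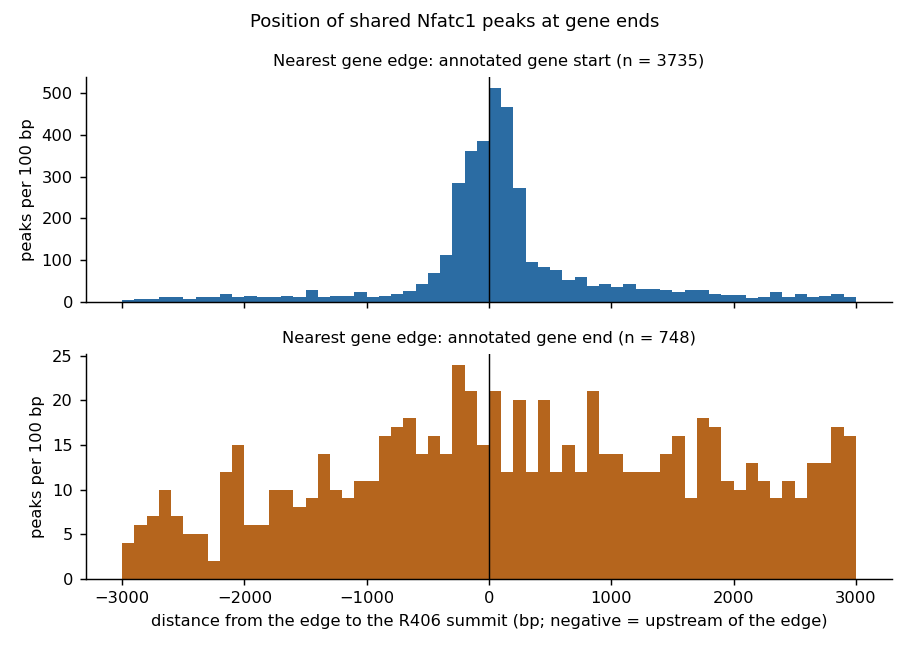
Number of shared gene-end peaks per 100 bp (y axis) by distance of the R406 summit from the nearest gene edge (x axis, bp, negative upstream). The upper panel has the 3735 peaks whose nearest edge is a gene start, which pile up at the start, and the lower panel the 748 whose nearest edge is a gene end, which form no such pile.

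Among peaks found in both libraries, a larger share sat at gene edges than among peaks of a single list. Of the 14714 shared peaks under 2000 bp, 40.9% had a summit within 3000 bp of a gene edge. The share was 33.0% of the 21571 narrow peaks called with R406 alone and 28.6% of the 5714 called with DMSO alone. Within 500 bp the shares were 24.4%, 14.1% and 10.7%. The remaining shared narrow peaks lay in gene bodies (5077) or between genes (3626). A peak often touched more than 1 gene: 2134 of the 6011 (35.5%) lay within the window of at least 2 genes, and 955 (15.9%) lay near the starts of genes on opposite strands. In all, 7475 genes were joined to a shared gene-end peak, among them 5089 of 21631 protein-coding genes (23.5%), and 978 genes had at least 2 such peaks.

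Fold here is the caller's enrichment at the summit over 1 background per library, and folds of separately called libraries share no scale. In 94.2% (DMSO) and 94.7% (R406) of peaks the fold was a whole number of steps of 0.729 and 0.633. This gives the number of fragments at the summit, which had a median of 12 in DMSO and 23 in R406 over the gene-end peaks. The steps also give the caller's background, 0.581 fragments with R406 against 0.373 with DMSO, a ratio of 1.56. Read depth was not measured here, so whether this ratio is one of depth was not tested. The difference in background moves with the treatment. Heights were therefore compared as ranks among the 14714 shared narrow peaks, where 0 is the lowest and 100 the highest fold of a library.

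Gene-end peaks ranked higher with R406 than with DMSO, and the other shared peaks ranked lower. The median rank of the 6011 peaks was 54.0 with R406 and 47.9 with DMSO, and the median difference per peak was 3.32 points. For peaks in gene bodies the medians were 47.8 and 53.7, with a difference of −2.29, and for intergenic peaks 47.8 and 53.7, with a difference of −1.47. The rank was higher with R406 for 56.8% of gene-end peaks, 44.7% of gene-body peaks and 45.7% of intergenic peaks. Ranks are relative, so these shifts have to balance over all shared peaks. Set over each library's own background, the median number of fragments at gene-end peaks was 39.6 times background with R406 and 32.2 times with DMSO, against 34.4 and 34.9 times at both other kinds. Over the 6011 peaks Pearson's r of the ranks was 0.608, and the points share a library, so it is a description.

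The shift lay at gene starts. Peaks within 500 bp of a start (2643) had median ranks of 61.6 with R406 and 47.9 with DMSO, a median difference of 6.68 points per peak. Between 500 and 3000 bp from a start (1092 peaks) the difference was 0.17, and at gene ends (748 peaks) it was −0.53. By distance from the start the median difference was 6.42 points up to 100 bp, 7.85 from there to 250 bp, 4.53 from there to 500 bp and 0.76 from there to 1000 bp. Peak width moved with treatment as well: gene-end peaks had a median width of 753 bp with R406 and 561 bp with DMSO, against 684 and 547 bp in gene bodies. When the rows of the DMSO list were classed by their own summits, the median difference was 2.50 at gene ends, −2.30 in gene bodies and −2.10 between genes. With 1 library per condition, treatment, library and depth cannot be told apart.

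**Figure D3:**
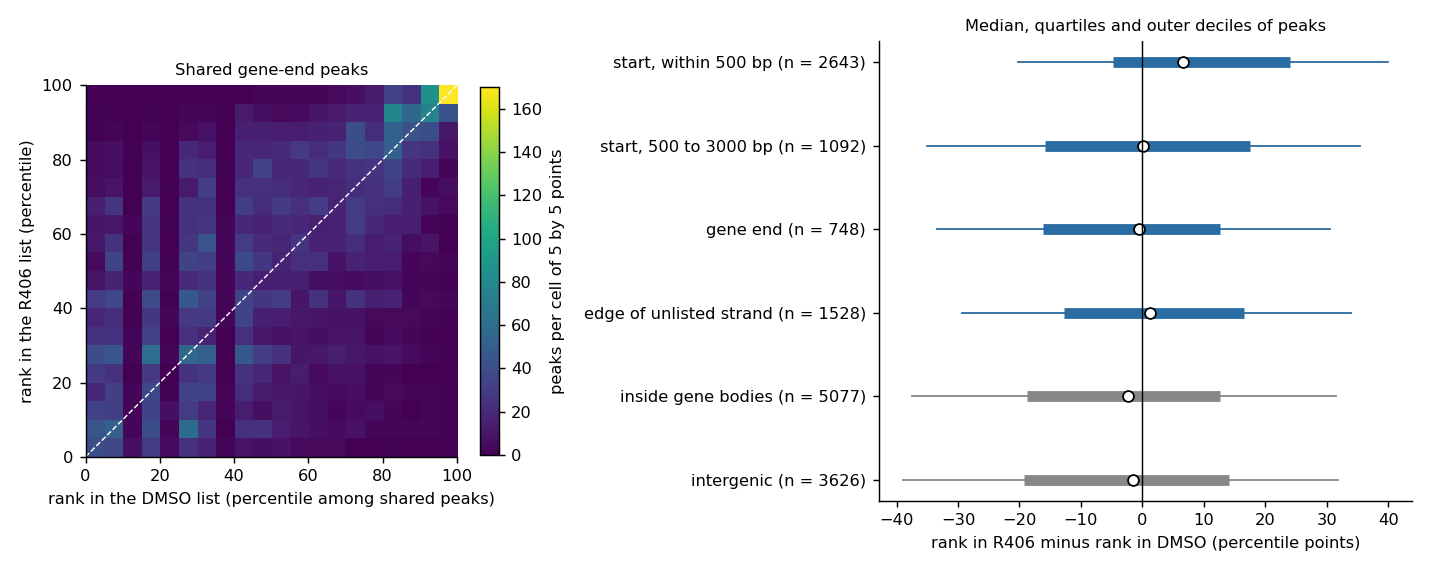
Left, number of shared gene-end peaks (colour) by rank of the fold in the DMSO list (x axis) and in the R406 list (y axis), both as percentiles among 14714 shared peaks. The dashed line marks equal ranks, and dark stripes come from folds that take few values at low fragment counts. Right, rank in R406 minus rank in DMSO (percentile points) with the median (point), quartiles (thick line) and outer deciles (thin line) of peaks. Peaks within 500 bp of a start have a median of 6.68, and the medians of the other kinds run from −2.29 to 1.18.

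For single peaks the counts were small, and few peaks stood clear of counting error. The 95% Poisson intervals of the fragments, turned into ranks, did not overlap and put R406 higher for 168 of the 5672 gene-end peaks with known fragments (2.96%). Over all 13830 shared peaks with known fragments, gene-end peaks included, this share was 2.27%. DMSO was higher for 104 gene-end peaks (1.83%), against 3.38% over all shared peaks. Within 500 bp of a start the counts were 104 with R406 higher and 19 with DMSO higher, of 2495 peaks. These intervals cover counting error in 1 library each and not the spread between cultures.

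The strongest gene-end peaks ranked above 99 in both libraries. Among the 10 with the highest mean rank in their full lists, the peak of Cdkn2d, an inhibitor of cyclin-dependent kinases, lay 22 bp downstream of the start, with 260 fragments and a fold of 165.1 with R406 and 102 fragments and a fold of 75.04 with DMSO. The peak of Leprot, which overlaps the leptin receptor gene, lay 328 bp upstream of the start and had 213 and 107 fragments. Atp2b1, a calcium pump of the plasma membrane, had 162 and 107 fragments 203 bp upstream of its start, and Kctd12, a subunit of potassium channel complexes, had 182 and 98. The peak between the starts of 4933430I17Rik and Pole3, a subunit of a DNA polymerase, had 184 and 95 fragments. For these 5 the counting intervals of the ranks overlapped between the libraries.
In this group Frat2 ranked higher with R406 beyond counting error (316 against 90 fragments) and Hbp1, a transcriptional repressor of the cell cycle, ranked higher with DMSO (169 against 124). Both ranks of both genes were above 99, so these differences span less than 1 rank point. Ifitm2, an interferon-induced membrane protein, had its peak inside the gene, 1350 bp before its end, with 225 and 96 fragments, and the predicted gene Gm39442 had 258 and 142. The peak of Lars2, the mitochondrial leucyl-tRNA synthetase, was 426 bp wide with folds of 143.0 and 92.3 that did not fall on a step, so its fragments are not known. Its place, 643 bp before the end of the gene, is a region known for RNA repeats of ribosomal type, and whether reads were placed uniquely there was not tested.

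Of the 8 largest gains in rank with R406, 5 lay within 250 bp of a gene start of known strand, and the DMSO peak had 5 or 6 fragments wherever its fragments were known. The rule took the 8 largest changes in full-list rank in each direction among peaks in the upper 50% of fold in at least 1 library. Mark2, a kinase of microtubule regulation, had 52 fragments with R406 and 6 with DMSO at 140 bp downstream of its start, which is rank 90.5 against 3.73. The chromatin remodeller gene Chd8 had 46 against 6 fragments, and Cyp20a1, a cytochrome P450 gene, had 42 against 6. Tsc22d1, a gene that responds to TGF-beta, had 30 against 5 at 248 bp upstream of its start, and the peak between Pde4c and Rab3a also had 30 against 5. In each of these the counting intervals of the ranks did not overlap. At Pik3r1, the regulatory subunit of PI3-kinase, folds of 23.2 and 4.78 fell off the steps, and the 2 remaining peaks lay at the predicted genes Gm52329 and Gm25199.
Among the largest losses, Rab40c, a gene of a small GTPase, had 8 fragments with R406 and 42 with DMSO at 505 bp inside its start. Its DMSO peak was 1414 bp wide and its R406 peak 292 bp. Gas1, a growth arrest gene of the Hedgehog pathway, had 9 against 24 fragments, and Pla2g5, a secreted phospholipase, 10 against 31 at 1670 bp upstream. The other 5 were Gm9098 (7 against 24 fragments), Gm25408, Gm14210, F630206G17Rik and 1700095A13Rik. These peaks were picked as the extremes of 6011, so their size is a result of the choice.

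Shared gene-end peaks were found at NFAT pathway genes from calcium entry to the nucleus, and at none with known fragments did the counting intervals of the 2 libraries separate. Of 30 listed pathway genes in the gene table, 12 had such a peak, with 14 peaks among them. Of those with at least 10 TPM in DMSO, 6 of 15 had one, the same share as the 40.0% over all genes of that level. Of the channel genes for calcium entry, Orai2 had 37 fragments with R406 and 39 with DMSO at 249 bp upstream of its start, and Orai3 had 45 and 31 at 889 bp upstream, where the peak also lies by Fbxl19. The calmodulin gene Calm3 had the highest pathway peak, with 103 and 35 fragments 381 bp upstream. The calcineurin genes Ppp3cb (catalytic subunit) and Ppp3r1 (regulatory subunit) had 27 and 14, and 22 and 13 fragments. The Ppp3cb peak also lies by 1810062O18Rik and Usp54. Calcineurin genes thus ranked near the middle of all shared peaks, between 53.7 and 65.9.
The NFAT genes themselves were marked, Nfatc2 with 33 and 11 fragments at 93 bp upstream, Nfatc3 with 43 and 13 at 545 bp downstream, and Nfat5, the family member that answers to tonicity and not to calcineurin, with 32 and 13. At Nfatc1 there were 2 weak peaks near the edges of the gene, the stronger with 17 and 11 fragments. The kinases that oppose NFAT had 22 and 14 fragments (Dyrk1a) and 17 and 11 (Csnk1a1). The R406 counts of Nfatc2, Nfatc3 and Nfat5 were higher than those of DMSO by more than the background ratio of 1.56, yet each pair of ranks overlapped within counting error. Such an excess was not particular to these genes. Over all gene-end peaks the medians were 23 fragments with R406 and 12 with DMSO. With each count divided by its library's background, the median ratio of R406 to DMSO was 1.17.

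Of 25 listed NFAT targets, 8 had a shared gene-end peak, against 23.5% of all protein-coding genes, and at 10 TPM or more 4 of 8 had one, against 40.0% of all genes of that level. Rcan1 had 19 fragments with R406 and 18 with DMSO at 250 bp upstream of its start, and Ptgs2 had 36 and 22 at 163 bp upstream. Mmp14, a membrane-bound matrix protease, had its taller peak 979 bp past its end, with 67 and 25 fragments. Ctsk, the collagen-degrading cathepsin of osteoclasts, had 27 and 15 fragments 702 bp inside its start. The cytokine genes had low peaks, Il6 with 14 and 12 fragments and Il2 with 10 and 9, and so had the osteoclast receptor gene Oscar (9 and 9) and Rcan3 (9 and 7). The Oscar peak, 1377 bp from its start, also lies by Ndufa3 and Tfpt, and the Ctsk peak also lies by Arnt. All counting intervals of these pairs overlapped.

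Of 20 listed genes of methionine and hydrogen sulphide metabolism, 9 had a shared gene-end peak, and 7 of the 11 with at least 10 TPM, beside the same background of 23.5% and 40.0%. A single peak stood between Mpst and Tst, neighbours that encode the sulphur-transferring enzymes mercaptopyruvate sulphurtransferase and rhodanese, with 36 fragments with R406 and 16 with DMSO. The methionine synthase gene Mtr had 29 and 7 fragments, and Ahcy, which hydrolyses S-adenosylhomocysteine, had 20 and 7. Mat2a, the catalytic subunit that makes S-adenosylmethionine, had 44 and 14, while the taller-with-DMSO peak of Mat2b, its regulatory partner, had 17 and 19. Amd1, which commits S-adenosylmethionine to polyamines, had 41 and 11 fragments, and Ahcyl1 had 38 and 13. Mtap, which salvages methionine, had 21 and 21 fragments at a peak inside the gene 2873 bp before its end. The counting intervals of these pairs overlapped as well, also at Mtr, where the ranks were 69.6 and 9.47.

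The share of genes with a shared gene-end peak was larger in bins with more RNA. RNA values are TPM, a transcript's share of a fixed total per library, which keeps no read depth. Among protein-coding genes listed at 0 TPM in both DMSO libraries, 77 of 3972 (1.94%) had a shared gene-end peak. The share was 10.3% of genes above 0 and up to 1 TPM, 30.7% from 1 to 10 TPM, 41.1% from 10 to 100 TPM and 47.2% (44.3% to 50.0% by Wilson interval) above 100 TPM. For peaks at the gene start the same series ran from 0.881% to 35.6%, and for peaks at the gene end from 0.881% to 9.97%. The RNA and the CUT&Tag cells were grown separately, so this sets levels of one culture beside peaks of another.

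**Figure D4:**
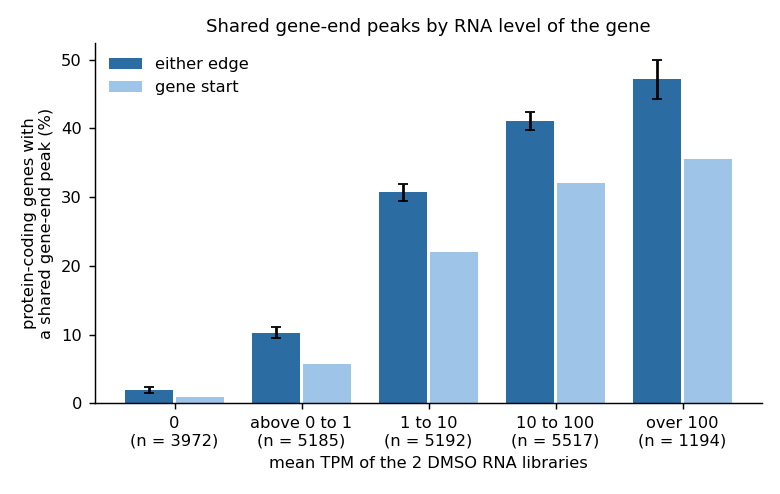
Share of protein-coding genes with a shared gene-end peak (y axis, %) in bins of the mean TPM of the 2 DMSO RNA libraries (x axis, number of genes in parentheses). Dark bars count a peak at either edge, with 95% Wilson intervals, and light bars a peak at the gene start. The dark bars rise from 1.94% to 47.2%.

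The share of genes called in RNA with R406 was lower among genes with a shared gene-end peak than over all genes, a gap that all but closed with a replicate block (32.8% against 33.5%). Limma, run on log2(TPM + 1) for 13929 genes with a Benjamini-Hochberg adjusted p of 0.05 as the limit, found that 593 rose (4.26%) and 564 fell (4.05%), 8.31% in all. Among the 4686 tested genes with a shared gene-end peak, 106 rose (2.26%) and 167 fell (3.56%), 5.83% in all, with a median log2 difference of −0.06 against −0.02 over all tested genes. Among the 9243 other genes, 487 rose and 397 fell. Genes with a peak had more RNA (median 14.5 against 8.74 TPM), and within steps of level the share called stayed below that of other genes. It was 6.50% against 11.9% at 3 to 10 TPM and 5.82% against 8.49% at 10 to 30 TPM. At 30 to 100 TPM it was 5.37% against 6.83%, and above 100 TPM 5.49% against 8.43%. At 3 to 10 TPM both directions were lower, with 38 rises and 42 falls of 1231 genes against 174 and 133 of 2589. At 10 to 30 TPM the gap lay in rises, with 24 rises and 55 falls of 1357 genes against 108 and 86 of 2286. With a peak at the gene start, 58 of 3467 rose and 115 fell, and with a peak at the gene end, 30 of 749 rose and 26 fell.
The counts rest on 2 libraries per group and shift with them. Without the first DMSO library 24 genes with a peak rose and 26 fell, without the second DMSO library 71 rose and 78 fell, and without the second R406 library 184 rose and 140 fell, so that the larger number of falls turned into a larger number of rises. The labels do not say whether replicates were separate cultures, and p-values therefore cover no more than library-to-library spread, which may be technical. In bulk RNA, fewer cells of a type and less RNA per cell cannot be told apart. The summed TPM of 11 macrophage markers was 284 and 240 with DMSO and 21.6 and 22.8 with R406, with Adgre1, Ptprc and Tyrobp listed at 0 in at least 1 library. The sum of 8 endoderm markers was 103 and 106 against 1210 and 597, that of 6 epithelium markers 79.5 and 99.9 against 693 and 396, and that of 9 fibroblast markers 3385 and 2865 against 4567 and 3415. The part of such cell types in the RNA changes was not tested. Of these markers, shared gene-end peaks were found at 6 of 9 for fibroblasts (among them Col1a1, Col3a1 and Pdgfra), at 2 of 11 for macrophages (Cd14 and Csf1r) and at 0 of 14 for endoderm and epithelium together.

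Differences in peak rank and in RNA were also set side by side. Over 3467 genes with a peak at the start, Spearman's rho between the rank difference and the RNA log2 difference was 0.071. In 4 equal groups by rank difference, from the largest loss to the largest gain with R406, the share of genes called in RNA was 7.27%, 5.30%, 3.93% and 3.46%, with 19 rises and 44 falls in the first group and 10 rises and 20 falls in the last. Falls made up 69.8% and 66.7% of the calls in those groups. These are descriptions over genes, which are not replicates.

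The largest rises among genes with a shared gene-end peak were in a hormone, a glycine enzyme and a lysosomal enzyme. Avp, the vasopressin gene, had 2.02 and 1.25 TPM with DMSO and 53.7 and 29.6 with R406, a log2 difference of 3.97 ± 0.35 (SE, n = 2 per group, limma adjusted p = 0.0143), and its peak 1916 bp upstream had ranks of 59.2 (R406) and 70.2 (DMSO). Gldc, the glycine decarboxylase of the glycine cleavage system, had 5.00 and 5.87 TPM against 77.3 and 52.0, a difference of 3.33 ± 0.26 (limma adjusted p = 0.0125). Its peak, 1978 bp past the gene end, was tall in both libraries, with 66 and 47 fragments and ranks of 94.7 and 97.5. The lysosomal thiol reductase gene Ifi30 had 30.1 and 32.0 TPM against 290 and 177. Its peak, 1731 bp past the gene end, was low, at ranks of 7.01 (R406) and 13.0 (DMSO). RNA groups that do not overlap and a peak called in both conditions were required for a gene to be named here.
Tbx3os1, listed beside the transcription factor gene Tbx3, had 2.66 and 3.76 TPM against 33.4 and 23.6. The library kit does not mark strand, so its reads cannot be told apart from those of Tbx3 where they overlap, and Tbx3 itself had 19.1 and 18.2 against 64.3 and 53.4 TPM. Both genes share a peak with 68 and 36 fragments, at ranks of 95.1 and 94.6. Gm2a, the activator of ganglioside breakdown, had 19.9 and 19.7 against 107 and 76.3 TPM, with its peak 17 bp from the start at ranks of 71.3 and 66.9. The kinase gene Wnk4 had 2.64 and 2.55 against 27.8 and 12.7 TPM, and its end peak had 42 fragments with R406 and 10 with DMSO. The 10 largest rises also held Ifnk, an interferon gene, Plvap, a gene of endothelial diaphragms, and Arl4d, a small GTPase gene, with log2 differences from 2.15 to 2.76. Their nearest peaks had ranks of 29.8 (R406) and 25.5 (DMSO) at Ifnk, 12.8 and 9.47 at Plvap, and 33.7 and 17.1 at Arl4d.

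The largest falls included growth factor, chemokine and plasminogen activator genes. Ereg, which encodes the growth factor epiregulin, had 34.3 and 27.8 TPM with DMSO and 1.20 and 1.63 with R406, a log2 difference of −3.73 ± 0.22 (SE, n = 2 per group, limma adjusted p = 0.00886). It had 3 shared gene-end peaks, the nearest 170 bp from an edge with 12 fragments with R406 and 22 with DMSO, ranks of 16.9 and 81.8. Plat, the tissue plasminogen activator, had 238 and 204 against 39.4 and 33.3 TPM, and its peak was modest, with 18 and 17 fragments.
Etv5, an ETS transcription factor gene downstream of fibroblast growth factor signalling, had 30.04 and 26.4 against 3.97 and 5.07 TPM, with 32 and 14 fragments 184 bp upstream of its start. Syt7, a calcium sensor of vesicle release, had 35.0 and 20.9 against 1.68 and 1.65 TPM and a peak of 44 and 17 fragments 2 bp from its edge. The serotonin receptor gene Htr1b had 22.6 and 21.9 against 2.70 and 2.68 TPM and carried 4 shared gene-end peaks. Ccl12, a chemokine gene, had 10.47 and 9.27 against 0.256 and 0.987 TPM, and the macrophage marker sums given above moved the same way. The Ccl12 peak was low, with 10 fragments with R406 and 7 with DMSO, at ranks of 8.94 and 9.47. Aif1l, Ccn3 and Prrg4 were also among the 10 largest falls, with log2 differences from −3.13 to −2.33. All 20 of the largest rises and falls passed limma's adjusted p of 0.05 also when any 1 of the 4 libraries was left out.

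**Figure D5:**
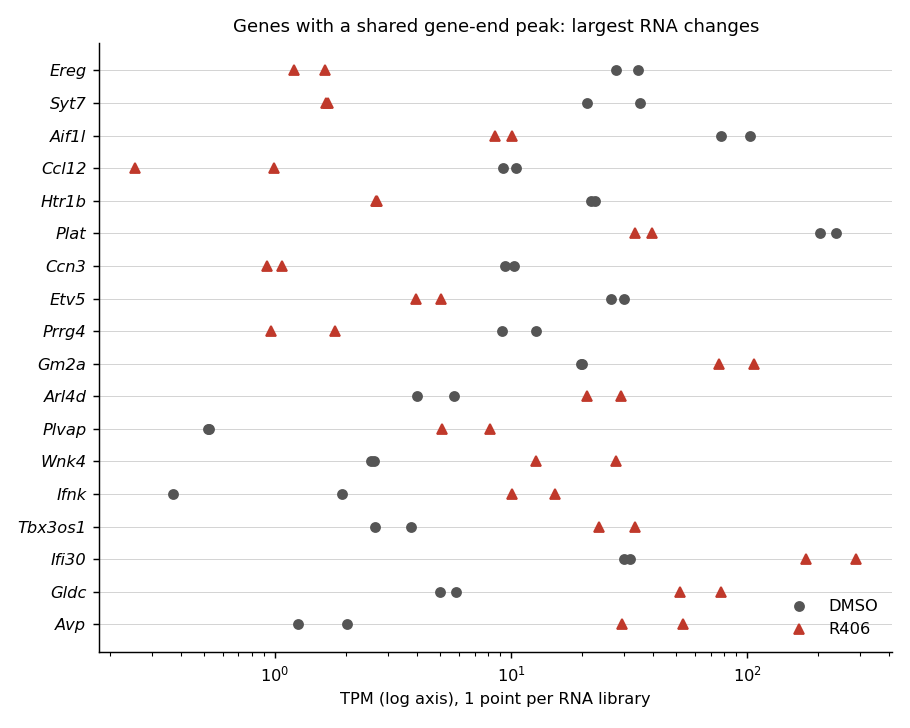
TPM (x axis, log scale) of 9 of the 10 largest falls (upper rows) and 9 of the 10 largest rises (lower rows) among genes with a shared gene-end peak. Grey circles are the 2 DMSO libraries and red triangles the 2 R406 libraries. Genes were chosen on the condition that the groups do not overlap.

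In 273 genes different shared peaks stood at the start and at the end. Of these, 191 were tested in RNA, and 5 rose and 9 fell, beside 8.31% called over all tested genes and 5.83% over genes with a peak. Besides Htr1b and Wnk4 they included S100a4, a calcium-binding protein of motile fibroblasts, with 273 and 249 TPM against 48.5 and 64.7, and Vcl, the vinculin gene of focal adhesions, with 27.8 and 17.99 against 4.35 and 4.78. Vcl had a start peak with 44 and 22 fragments, and both falls held with any 1 library left out.

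In the NFAT pathway, NFAT target and hydrogen sulphide lists the genes with a shared gene-end peak had 1 call in RNA, beside a share of 5.83% over all tested genes with such a peak. In the NFAT pathway limma called 0 of 11 tested genes with a peak, of which 3 had an unadjusted p under 0.05, and 1 fall among all 26 tested genes of the list. Nfatc1 itself had 2.41 and 2.98 TPM with DMSO and 7.36 and 5.45 with R406 (limma adjusted p = 0.0659), and Ppp3cb had 35.0 and 32.0 against 21.7 and 23.0 (adjusted p = 0.128). Among NFAT targets limma called 0 of 6 with a peak, with 4 under 0.05 before adjustment, and 1 fall among all 14. Ptgs2 had 15.5 ± 2.77 against 7.81 ± 0.263 TPM (SD, n = 2 per group, limma adjusted p = 0.0681), Mmp14 had 615 and 405 against 290 and 152 (adjusted p = 0.126), and Rcan1 had 160 and 128 against 159 and 128. In methionine and hydrogen sulphide metabolism 1 rise and 2 falls were called among all 17 tested genes and 1 fall among the 9 with a peak: Mtap fell from 81.3 and 77.3 to 37.5 and 38.1 TPM (limma adjusted p = 0.0342), a call that was lost without any 1 of the 4 libraries. Mpst had 37.6 and 31.9 against 53.7 and 43.5 TPM (adjusted p = 0.236) and Tst 8.10 and 8.02 against 20.4 and 14.1 (adjusted p = 0.0732).

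The lists of genes differed in how many of their members carried a shared gene-end peak. The p53 and senescence list had the highest share with 16 of 20 genes, followed by immediate early genes with 13 of 19, fibroblast genes with 11 of 18 and cAMP-responsive genes with 9 of 15. Between them lay serine and one-carbon genes with 11 of 22, ribosomal protein genes with 10 of 20, cell cycle genes with 10 of 25, interferon genes with 6 of 17, glycolysis genes with 8 of 23 and contractile genes with 6 of 21. At the low end stood endoderm with 1 of 24 (Pdgfra), epithelium with 2 of 20 and macrophage with 2 of 13, while pluripotency, with 5 of 21, lay near the 23.5% of all protein-coding genes. Over genes of at least 10 TPM in DMSO, 40.0% had such a peak. By the same limit the counts were 14 of 18 for p53 and senescence, 8 of 12 for immediate early genes and 11 of 18 for fibroblast genes. For cAMP-responsive genes the count was 2 of 5, at the share of all genes of that level. It was 6 of 11 for serine and one-carbon, 10 of 20 for ribosomal protein, 4 of 6 for cell cycle and 2 of 4 for interferon genes. The other counts were 7 of 19 for glycolysis, 6 of 20 for contractile genes, 1 of 8 for endoderm, 0 of 6 for epithelium, 1 of 3 for macrophage and 3 of 3 for pluripotency. Genes of several lists are counted in each. The lists were chosen with earlier results of these data known, so their counts of peaks and of RNA calls are descriptions.
Among p53 and senescence genes with a peak, 3 of 16 fell in RNA and 0 rose, against 4 falls among all 20 genes of the list and 4.05% over all tested genes. They included the chemokine gene Ccl7, with 352 and 306 against 65.4 and 84.8 TPM, and Mdm2, the ubiquitin ligase of p53, with 100.7 and 100.8 against 45.7 and 49.6, whose call was lost without any 1 library. Of immediate early genes, limma called 0 of 11 with a peak, and 2 had an unadjusted p under 0.05: Atf3, with 4.82 and 3.42 against 1.95 and 1.76 TPM (adjusted p = 0.0910), and Klf4, with 24.7 and 19.04 against 61.4 and 38.3 TPM (adjusted p = 0.0885). Myc had 3.36 and 3.39 against 10.8 and 4.90 TPM (adjusted p = 0.190).
Of contractile genes, 5 of the 6 with a peak fell and 0 rose, with a median log2 difference of −1.64, against 10 falls among all 21 tested genes of that list. They included the matricellular genes Ccn1, with 287 and 188 against 64.1 and 48.7 TPM, and Ccn2, with 15.8 and 11.1 against 3.15 and 2.82, and the actinin gene Actn1, with 129 and 106 against 47.9 and 37.8. These 3 calls were lost without the first DMSO library (limma adjusted p = 0.0647, 0.0572 and 0.122), and that of Actn1 also without the second. Their peaks ranged from 9 and 8 fragments at Ccn1 to 44 and 22 at Vcl.

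Other lists held rises, beside a share of 4.26% that rose over all tested genes and 2.26% over genes with a peak. As the lists were chosen with earlier results of these data known, a list with many calls is no independent support. Calls in several lists lay also at genes without a peak. Over the whole lists, 9 of 15 tested interferon genes rose, and 10 of 11 macrophage genes fell. Of 25 cell cycle genes 9 rose and 1 fell, and of 19 epithelium genes 13 rose and 1 fell. Of pluripotency genes 4 of 6 rose, and of serine and one-carbon genes 4 of 22. Of interferon genes with a peak, 3 of 5 rose: Bst2, which tethers virions, had 293 and 295 against 1033 and 1240 TPM, Ifit3 had 4.63 and 5.32 against 11.8 and 13.3, and Usp18 had 1.74 and 2.64 against 6.27 and 5.75. Their peaks were low, with 9 and 6 fragments at Bst2 and 7 and 5 at Ifit3. Of cell cycle genes 2 of 10 rose, Cdc20, a mitotic gene of the anaphase-promoting machinery, with 5.13 and 5.02 against 21.2 and 17.2 TPM, and Mcm6, a subunit of the replicative helicase, with 2.71 and 4.26 against 17.8 and 11.3. All 5 of these calls were lost without the first DMSO library, and those of Ifit3 and Usp18 also without the second DMSO library and without 1 of the R406 libraries. Of pluripotency genes with a peak 2 of 4 rose, Tbx3 and Klf5, the latter with 9.73 and 13.9 against 26.9 and 30.05 TPM, and both calls were lost without either DMSO library, that of Klf5 also without the second R406 library. In serine and one-carbon metabolism 2 of 11 rose, among them Gldc. Of the 11 fibroblast genes with a peak, 2 rose (Postn and Col3a1) and 2 fell (S100a4 and Fn1), of which S100a4 held without any 1 library and the others were lost without the first DMSO library, Col3a1 and Fn1 also without the second and Fn1 without the second R406 library. Of cAMP-responsive genes 2 of 8 rose, Gem and Rgs2, both lost without either DMSO library or the first R406 library, and Rgs2 also without the second. Of ribosomal protein genes 1 of 10 rose, Rps14, a call lost without any 1 library in a family with many near-identical copies. Among the lists of cell types, Tjp3, a tight junction gene, rose (1 of 2 epithelium genes with a peak), and Csf1r, the receptor of a macrophage growth factor, fell (1 of 2 macrophage genes), both calls lost without either DMSO library, and Pdgfra of the endoderm list did not pass (195 and 194 against 169 and 157 TPM). Of glycolysis genes limma called 0 of 8 with a peak, and 1 had an unadjusted p under 0.05, Hk2, with 23.0 and 21.2 against 13.3 and 10.3 TPM (adjusted p = 0.0737).

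Peaks just inside and just outside the limits of the rule had folds in overlapping ranges. The 3 peaks just inside the 3000 bp limit lay 2996 to 3000 bp from a gene edge with R406 folds of 12.0, 11.4 and 17.7, and the 3 just outside lay at 3003 to 3006 bp with 29.7, 10.8 and 19.6. Just inside the width limit 3 peaks of 1994 to 1999 bp had R406 folds of 48.7, 34.8 and 17.7, and just outside it 3 peaks of 2007 to 2010 bp had 24.0, 15.2 and 29.1. The limits thus cut through a continuous range, and 225 of the 495 wider shared peaks also lay at gene ends.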

How the data were processed

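The authors deposited 1 peak list per CUT&Tag library with a score, a fold ratio over background, a −log10 p-value and a −log10 q-value for each peak. Bowtie2 2.2.5 and MACS2 2.1.2 on mm10 are named in the submitters' processing notes, whereas control and duplicate handling are not given. For RNA, the authors deposited TPM, with HISAT2 2.1.0 and StringTie 2.0 named in the same notes.

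Peaks were joined to 49554 RefSeq gene spans of GRCm38.p6. Fragments per summit were the fold over its step minus 1, on a step within 0.002, and the caller's p-values matched a Poisson count within 0.01 in 99.96% (DMSO) and 99.78% (R406) of such peaks. Genes whose mean over the 4 libraries reached 1 TPM were tested on log2(TPM + 1) by limma 3.58.1 (R 4.3.3), two-sided with trended variance and Benjamini-Hochberg adjustment. Of 13929 tested genes, 97.0% matched a RefSeq gene. In simulated data for this comparison 42% of 200 genes changed by a log2 of 2 were recovered.

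Members, 17 gene lists and motifs were chosen with earlier results of these data known. Named peaks were the 10 highest mean ranks, the 8 largest rank gains and losses, and every peak at NFAT pathway, NFAT target and hydrogen sulphide genes. Named genes were the 10 largest called rises and falls, up to 4 per list by smallest p, and up to 4 called with peaks at both edges. H3c11 and H2ac6 were chosen for printing after motif results were seen. A few named genes are not reported here.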

Additional observations from a re-analysis of the deposited data

How the results depend on the processing

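Of 85 recomputed values, 50 stayed close to the reported one and 35 moved. Close meant counts within 1.5 times, the RNA median within its spread over library pairs, and ranks and shares within an interval over peaks, windows or genes. With 1 CUT&Tag library per condition, such an interval holds no spread between cultures. The cause of the moves was not tested unless a smaller set of peaks or libraries makes it plain. With a −log10 q of at least 10 in both lists 3517 peaks were left, with median full-list ranks of 86.85 (R406) and 74.39 (DMSO) in place of 77.7 and 58.4. The DMSO rank was 58.8 among narrow peaks and 57.47 by −log10 p, and a 1000 bp limit gave an R406 rank of 80.63. The full-list rank difference of 12.4 became 13.99 at 1000 bp and 3.317 when ranked among shared peaks, and on that same scale it was 2.496 for peaks of the DMSO list (added after seeing the data). At 1000 bp 34.46% of genes of at least 10 TPM had a peak, in place of 40.0%. With the replicate block limma called 611 rises and 928 falls among genes with a peak, and 2128 and 2535 over all genes. Same-numbered libraries deviated together (correlation 0.556 over genes), but no label gives the number a meaning. With genes of at least 5 TPM 55 genes with a peak rose, against 311 rises and 332 falls over all genes. With no filter limma called 0 rises and 0 falls in both sets, while 1253 genes with a peak and 5394 of all genes had an unadjusted p under 0.05. Quantile normalization gave 180 rises with a peak and 850 falls over all genes, and median centring 189 rises with a peak and 933 over all genes. Joining the nearest gene alone gave 69 rises and gene starts alone, an alternative added after seeing the data, 58. Leaving out 1 library gave 24 to 184 rises and 26 to 163 falls among genes with a peak, 190 to 896 rises and 152 to 597 falls over all genes, and a median log2 difference of −0.18 to 0.06. The share called was 5.83% for genes with a peak against 8.31% of all genes, but the replicate block nearly closed that gap (32.8% against 33.5%); in the other settings with calls it was lower for genes with a peak. Motifs in windows around summits were not run, as no genome sequence was used. Depth limits single peaks: a DMSO peak of 5 fragments has a 95% Poisson interval of 1.62 to 11.7.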
